A study of Rattus norvegicus with 9 samples.

Results

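Caveolae are flask-shaped pits of the plasma membrane that are abundant in smooth muscle, endothelium and fat cells. The 7 genes described here encode their coat: the caveolins Cav1, Cav2 and Cav3, the cavins Cavin1, Cavin2 and Cavin3, and the ATPase Ehd2. They and the gene lists below were chosen by name, with earlier results of these data known. Each of the 7 was represented by 1 probe, spotted once, among 30367 non-control probes of the array, and each spot was well above background on all 9 arrays. Of the 7, 6 are among the 11092 genes tested with spots carrying an outlier flag left out. Cav1 was tested only with such spots kept, among 11681 genes.

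Total RNA of bladders from female rats was labelled with Cy3 and hybridised to 9 one-colour Agilent arrays. The sample titles give 3 arrays each to partial bladder outlet obstruction (pBOO) treated with tolterodine, pBOO alone, and sham operation, all at 3 weeks. For pBOO the proximal urethra was tied with 4-0 wire over a catheter of 1 mm outer diameter, and in the sham operation it was not tied. Tolterodine is an antagonist of muscarinic acetylcholine receptors, and its dose, the route and the strain and age of the rats are not given in the sources used here. According to the labels 5 bladders per group were examined, without saying whether an array holds 1 bladder or a pool, so p-values measure only the spread between arrays, which may be technical. The treatment protocol assigns the letters S and C to pBOO and sham, and the sample codes of the arrays titled pBOO and sham carry these letters the other way round. The titles were followed, and every sign below rests on them.

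The tissue label is bladder, with no dissection of the detrusor muscle named. Of 18 smooth muscle marker genes, 16 were on the array by name, and each of them was well above background on all 9 arrays. Markers of urothelium, fibroblasts, endothelium and macrophages were measured too. The 75th percentile of the processed signal lay between 523.04 and 1440.72 intensity units, and 72.1% to 80.1% of spots were well above background. The arrays were scanned together in 3 sets: the first held tolterodine 1 and 2 with sham 2 and 3, the second held the 3 pBOO arrays with sham 1, and the third held tolterodine 3 alone. No set holds both tolterodine and pBOO arrays, so for that pair the group and the scan cannot be told apart within a set. A fit with the scan set as a fixed block joins that pair only through the sham arrays. Such a value rests on sham 1 as the only sham array scanned with pBOO. Tolterodine 3, alone in its set, adds nothing to it.

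Caveolins are hairpin membrane proteins that form the coat of the pit, and Cav1 is required for caveolae outside striated muscle. Cav2 joins Cav1 in mixed oligomers, and Cav3 is the form of striated muscle that is also found in some smooth muscle. The cavins are cytoplasmic adaptors: Cavin1 is required for caveolae to form, Cavin2 shapes the membrane, and Cavin3 links caveolae to signalling proteins. Ehd2 forms a ring at the neck and holds the pit at the cell surface. In smooth muscle caveolae flatten when the membrane is stretched, and they gather receptors, ion channels and nitric oxide synthase.

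Cav2 and Cav1 are neighbours on rat chromosome 4, on the same strand, with 0 annotated genes between them. The bases before the start sites of these caveolins, the pair with the largest fold changes below, and of Cavin1 and Cavin2 are shown. Between tolterodine and pBOO the caveolins passed the test below and these cavins did not. Whether the caveolins and the cavins differ from each other was not tested. RefSeq (GRCr8) gave 7 promoters for 6 of the 7 members, 2 of them for Cav1, and Cavin3 is named only. Each sequence is the 250 bases before the start, 5′ to 3′ on the strand of the gene. Capitals mark the motifs, each searched on both strands. The GC box was searched as GGGCGG. The MCAT box of muscle genes was searched as CATTCC. The CCAAT box was searched by the letters of its name. The TATA box was searched as TATAAA. The CArG box, the site of serum response factor, had no match here. None of these motif matches overlap each other.
Cav2 promoter, chr4:46582431-46582680, plus strand: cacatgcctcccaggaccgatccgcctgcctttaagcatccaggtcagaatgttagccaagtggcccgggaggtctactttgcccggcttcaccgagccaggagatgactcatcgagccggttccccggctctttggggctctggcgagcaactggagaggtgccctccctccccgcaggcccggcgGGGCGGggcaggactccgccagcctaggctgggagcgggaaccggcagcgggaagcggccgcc
Cav1 promoter, first start site, chr4:46606288-46606537, plus strand: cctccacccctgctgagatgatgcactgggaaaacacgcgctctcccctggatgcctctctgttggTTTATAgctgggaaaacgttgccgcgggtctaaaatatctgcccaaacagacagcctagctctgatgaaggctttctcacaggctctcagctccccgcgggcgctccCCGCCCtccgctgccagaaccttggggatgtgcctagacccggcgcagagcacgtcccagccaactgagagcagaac
Cav1 promoter, second start site, chr4:46607722-46607971, plus strand: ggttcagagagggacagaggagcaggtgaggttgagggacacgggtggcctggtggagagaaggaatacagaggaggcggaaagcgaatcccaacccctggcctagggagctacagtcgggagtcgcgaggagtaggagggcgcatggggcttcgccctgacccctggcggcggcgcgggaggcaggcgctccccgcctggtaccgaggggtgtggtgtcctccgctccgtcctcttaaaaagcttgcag
Cavin1 promoter, chr10:86396384-86396633, minus strand: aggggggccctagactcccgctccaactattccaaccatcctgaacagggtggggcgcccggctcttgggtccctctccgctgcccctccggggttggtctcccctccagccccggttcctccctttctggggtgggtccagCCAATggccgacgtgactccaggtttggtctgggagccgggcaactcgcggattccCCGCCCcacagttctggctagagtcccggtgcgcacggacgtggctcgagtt
Cavin2 promoter, chr9:57806025-57806274, minus strand: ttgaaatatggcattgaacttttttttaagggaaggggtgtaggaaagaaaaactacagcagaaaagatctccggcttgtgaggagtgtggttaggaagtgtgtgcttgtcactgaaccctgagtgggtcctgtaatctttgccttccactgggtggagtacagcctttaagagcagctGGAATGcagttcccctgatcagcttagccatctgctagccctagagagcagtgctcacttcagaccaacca

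Cav2, the first start site of Cav1, Cavin1 and Ehd2 each had a GC box within 77 bases of the start, and 30.5% of 33469 rat promoters of this length held one. Cav1 also had a TATA box match between 179 and 184 bases before its first start (12.9% of promoters), and Cavin1 a CCAAT box match between 104 and 108 bases before (34% of promoters). Cav3 had a CCAAT box at 125 to 129 bases, and Ehd2 had a pair of them, at 176 to 180 and at 233 to 237 bases. Cavin2 and Cav3 had an MCAT box, at 66 to 71 and at 152 to 157 bases before the start (12.1% of promoters). The second start site of Cav1 had no match to any of the 5 motifs. A CArG box was found in 0 of the 7 promoters, against 1.5% of all promoters. These are matches of letters in a window and no sign of binding.

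The first comparison was between obstructed and sham-operated bladders. Cav1 and Cav2 were 3.00-fold and 3.01-fold higher in pBOO bladders, Cavin2 2.33-fold, Cavin1 2.14-fold and Cavin3 1.60-fold. The call for Ehd2 turned on 1 flagged spot, the scaling and single arrays, and Cav3 did not pass the test. The levels below are log2 values relative to the 75th percentile of the array, each change is a difference of such levels, given with its standard error (SE) from a limma fit over all 9 arrays, and adjusted p-values are Benjamini-Hochberg values over all genes tested, with a threshold of 0.05. A change in bulk tissue does not tell more cells of a type from more RNA per cell.

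**Figure D1:**
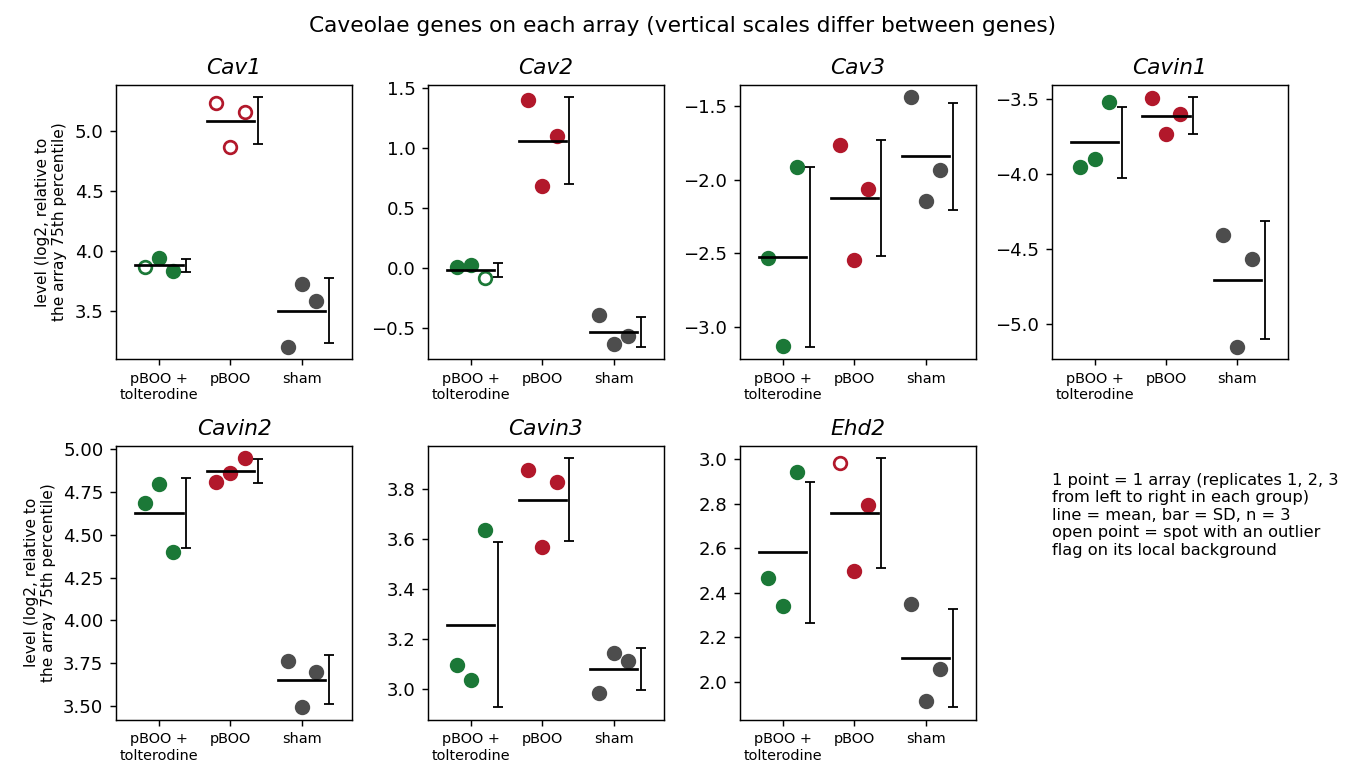
Log2 level of each of the 7 caveolae genes on each of the 9 arrays (vertical axis, relative to the array's 75th percentile), with tolterodine-treated pBOO, pBOO and sham from left to right. Points are arrays, lines are means and bars the SD (n = 3), and open points are spots whose local background carried an outlier flag. All 3 pBOO points lie above all 3 sham points for 6 genes, and Cav3 is the exception.

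Cav1, the main structural protein of the pit, had levels of 3.87, 3.94 and 3.83 on the tolterodine arrays, 5.23, 4.87 and 5.16 on the pBOO arrays, and 3.20, 3.72 and 3.58 on the sham arrays. The pBOO arrays stood above both other groups without overlap, and the lowest tolterodine array stood above the highest sham array. The spots of all 3 pBOO arrays and of tolterodine 1 carried a flag, in each case on the local background and not on the spot. Those backgrounds measured 35, 26.5 and 25 intensity units on the pBOO arrays, beside spot signals of 51690, 29197 and 31379. The limma test with these spots kept gave a rise of 1.58 in pBOO against sham (SE 0.158, adjusted p = 0.000135).

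Cav2, the partner of Cav1, had levels of 0.01, 0.03 and -0.08 on the tolterodine arrays, the last from a flagged spot, 1.40, 0.68 and 1.10 on the pBOO arrays, and -0.39, -0.63 and -0.57 on the sham arrays. The 3 groups did not overlap, with pBOO highest and sham lowest. In limma Cav2 rose by 1.59 in pBOO against sham (SE 0.184, adjusted p = 0.000447), a change of the same size as that of Cav1.

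Cav3, the muscle caveolin, had levels of -2.53, -3.13 and -1.91 on the tolterodine arrays, -1.76, -2.54 and -2.06 on the pBOO arrays, and -1.44, -2.15 and -1.94 on the sham arrays. The 3 groups overlapped. The difference between pBOO and sham was -0.28, with a 95% confidence interval from -1.03 to 0.46 (limma adjusted p = 0.517). That interval lies below the changes of the other caveolins and does not tell a fall of 2-fold from a small rise.

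Among the cavins, Cavin1 had levels of -3.95, -3.90 and -3.52 on the tolterodine arrays, -3.49, -3.73 and -3.60 on the pBOO arrays, and -4.40, -5.15 and -4.56 on the sham arrays. Both obstructed groups stood above sham, and they overlapped with each other. In limma Cavin1 rose by 1.10 in pBOO against sham (SE 0.206, adjusted p = 0.00309). Its probe was the dimmest of the 7, at 23.1 to 35.7 intensity units on the sham arrays, and with another background correction (normexp) the value was 0.29 and no longer passed (adjusted p = 0.0787).

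Cavin2 had levels of 4.68, 4.80 and 4.40 on the tolterodine arrays, 4.81, 4.86 and 4.95 on the pBOO arrays, and 3.77, 3.49 and 3.70 on the sham arrays. Each of the 6 arrays of obstructed bladders, treated or not, stood above each of the 3 sham arrays. Cavin2 rose by 1.22 in pBOO against sham (limma, SE 0.134, adjusted p = 0.000222).

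Cavin3 had levels of 3.09, 3.04 and 3.64 on the tolterodine arrays, 3.88, 3.57 and 3.83 on the pBOO arrays, and 2.98, 3.14 and 3.11 on the sham arrays. The pBOO group stood clear of sham, while the tolterodine group was split, with arrays 1 and 2 within the sham range and array 3 within the pBOO range. Cavin3 rose by 0.68 in pBOO against sham (limma, SE 0.173, adjusted p = 0.0129). The rise was larger with quantile scaling, at 1.09, and with normexp, at 1.10.

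Ehd2, the ATPase of the neck, had levels of 2.47, 2.34 and 2.94 on the tolterodine arrays, 2.98, 2.50 and 2.80 on the pBOO arrays, and 2.35, 1.91 and 2.06 on the sham arrays. The pBOO arrays stood above sham by a narrow gap. With the flagged spot of pBOO 1 left out the difference was 0.54 and did not pass (limma, SE 0.219, adjusted p = 0.0820), and with it kept Ehd2 rose by 0.65 (adjusted p = 0.0275). Ehd2 also passed with quantile scaling at 0.83 (adjusted p = 0.00923), with normexp at 0.79 (adjusted p = 0.00602), without tolterodine 3 at 0.54 (adjusted p = 0.0402) and without sham 1 at 0.66 (adjusted p = 0.0466).

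In all, 4 of the 6 members tested without flagged spots were called higher in pBOO than in sham and 0 lower, where 20.7% of all 11092 genes were called higher and 21.6% lower. With flagged spots kept the count was 6 of 7, beside 20.5% of 11681 genes. In 6 of 7 genes the levels of the 3 pBOO arrays all exceeded those of the 3 sham arrays, beside 25.2% of all genes. The median change of the members was 0.89 over the 6 and 1.10 over the 7, and that of all genes was -0.04. Within the second scan set, which holds 3 pBOO arrays and 1 sham array, the changes were 1.88 for Cav1, 1.45 for Cav2, 0.80 for Cavin1, 1.11 for Cavin2 and 0.77 for Cavin3. Ehd2 was at 0.30 there and Cav3 at -0.68. With a single sham array these are values with no measure of the spread in sham, and no test is drawn from them.

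The second comparison was between obstructed bladders with and without tolterodine. The caveolins Cav1 and Cav2 were lower by 2.31-fold and 2.06-fold with the drug, Cavin3 by 1.42-fold, and Cavin1, Cavin2, Ehd2 and Cav3 did not pass. Cav1 fell by 1.21 (flagged spots kept, limma, SE 0.158, adjusted p = 0.000506), in each of the 3 tolterodine arrays below each pBOO array. Cav2 fell by 1.04 (SE 0.206, adjusted p = 0.00538), again without overlap, and with the scan set as a fixed block the value was -0.84 and did not pass (adjusted p = 0.0917). Cavin3 fell by 0.50 (SE 0.173, adjusted p = 0.0447), with tolterodine 3 inside the pBOO range.

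The call for Cavin3 and its size depended on the arrays and the scaling. It was lost without tolterodine 1 (-0.42), tolterodine 2 (-0.39), pBOO 1 (-0.44), pBOO 3 (-0.47), sham 2 or sham 3 (-0.50 each), and it grew to -0.69 without tolterodine 3. It was also lost without the filter on dim probes (adjusted p = 0.0641). The fall was larger with quantile scaling at -0.84 (adjusted p = 0.00196), with normexp at -0.89 (adjusted p = 0.000209) and with the scan set as a fixed block at -0.84 (adjusted p = 0.0150).

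For Cavin1 the difference between tolterodine and pBOO was -0.18, with a 95% confidence interval from -0.65 to 0.29 (limma adjusted p = 0.512). For Cavin2 it was -0.24, from -0.55 to 0.06 (limma adjusted p = 0.175), so the interval of this bright probe excludes a fall as large as the 1.21 and 1.04 of the caveolins. The scaling matters for Cavin2, which passed at -0.61 with quantile scaling (adjusted p = 0.0252) and at -0.65 with normexp (adjusted p = 0.00547). Ehd2 differed by -0.06, from -0.57 to 0.44 (limma adjusted p = 0.836), and Cav3 by -0.40, from -1.15 to 0.34 (limma adjusted p = 0.353). With the scan set as a fixed block the values of Cavin1, Cavin2 and Ehd2 were 0.14, 0.04 and 0.12, on the other side of 0. Like the fixed-block values of Cav2 and Cavin3 above, they rest on sham 1 as the only sham array scanned with pBOO.

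Of the 6 members tested without flagged spots, 2 were called lower with tolterodine and 0 higher, where 15.3% of all genes were called lower and 26% higher. With flagged spots kept it was 3 of 7, beside the same 15.3%. The groups did not overlap for 3 of 7 members, all lower (Cav1, Cav2 and Cavin2), beside 21.5% of all genes. The median change of all genes was 0.11 here. It moved by -0.10 with quantile scaling and by -0.11 with normexp. Relative to it the members stood at -1.32 (Cav1), -1.15 (Cav2), -0.61 (Cavin3), -0.36 (Cavin2), -0.29 (Cavin1), -0.17 (Ehd2) and -0.51 (Cav3).

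**Figure D2:**
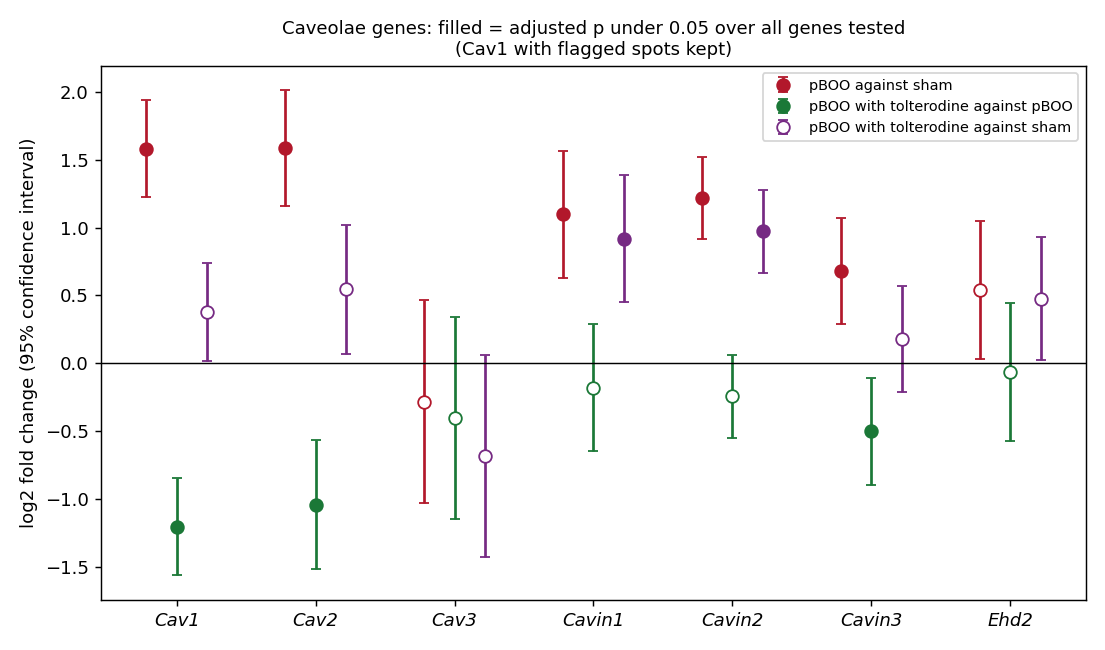
Log2 fold change of each caveolae gene (points) with its 95% confidence interval (bars) in 3 comparisons, pBOO against sham in red, tolterodine-treated pBOO against pBOO in green and tolterodine-treated pBOO against sham in purple. Filled points passed an adjusted p of 0.05, and Cav1 is shown with flagged spots kept. The green points of Cav1 and Cav2 lie below -1, while those of Cavin1 and Cavin2 lie at -0.18 and -0.24.

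The third comparison set tolterodine-treated obstructed bladders against sham, and it shares its arrays with the comparisons before it. Cavin1 and Cavin2 were higher than in sham by 1.89-fold and 1.96-fold, and the caveolins did not pass. Cavin2 rose by 0.97 (limma, SE 0.134, adjusted p = 0.00190) and passed under every alternative that kept the names of the groups. Cavin1 rose by 0.92 (SE 0.206, adjusted p = 0.0139). It no longer passed with quantile scaling, at 0.61 (adjusted p = 0.0878), or with normexp, at 0.18 (adjusted p = 0.318). Cav1 differed by 0.38 (adjusted p = 0.115) and Cav2 by 0.55 (adjusted p = 0.0908), both with 95% confidence intervals above 0 before adjustment. Ehd2 differed by 0.48 (adjusted p = 0.116), and it passed with quantile scaling at 0.55 (adjusted p = 0.0498), with normexp at 0.52 (adjusted p = 0.0404) and with the scan set as a random block at 0.45 (adjusted p = 0.0422). Cavin3 differed by 0.18 (adjusted p = 0.483) and Cav3 by -0.69 (adjusted p = 0.160).

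Of the 6 members tested without flagged spots, 2 were called higher in the tolterodine group than in sham and 0 lower, where 17.8% of all genes were called higher and 6.55% lower. With flagged spots kept the count stayed at 2 of 7, beside 17.5%. The levels of Cav1, Cav2, Cavin1 and Cavin2 did not overlap between these groups, 4 of 7 members, beside 27.1% of all genes. Within the first scan set, with 2 arrays of each group, Cav2 was at 0.62, Cavin1 at 0.93, Cavin2 at 1.14 and Ehd2 at 0.42, which all passed as higher, and Cav3 passed as lower at -0.79. In that set 32.1% of all genes were called higher and 21.6% lower. The median of all genes was 0.09 and moved by -0.14 with median scaling, and relative to it Cavin1 stood at 0.83 and Cavin2 at 0.88.

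In the order of levels over the 3 groups, Cav1 and Cav2 ran from pBOO through tolterodine to sham, with a step between tolterodine and sham that did not pass. Cavin1 and Cavin2 also had pBOO highest, but there the step between pBOO and tolterodine did not pass. For Cavin3 the same holds between tolterodine and sham, for Ehd2 with flagged spots left out between any pair of groups, and for Cav3 between any pair.

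The balance of caveolins and cavins was followed on each array, as the mean log2 level of Cav1 and Cav2 minus that of Cavin1 and Cavin2. These pairs were chosen after their values were seen, so no test is given. The difference was 1.57, 1.53 and 1.43 on the tolterodine arrays, 2.66, 2.21 and 2.46 on the pBOO arrays, and 1.72, 2.38 and 1.94 on the sham arrays. The tolterodine arrays lay below all others, and pBOO and sham overlapped. Left out of the balance is Cavin3, which differed by -0.50 between tolterodine and pBOO. The probe of Cavin1 was the dimmest of the members. Its value between tolterodine and sham was 0.92 here and 0.18 with normexp, so the gap between these groups rests in part on the background correction. The group means were 1.51 ± 0.07 with tolterodine, 2.44 ± 0.22 in pBOO and 2.01 ± 0.33 in sham (SD, n = 3 each). Since each gene is read by its own probe, the size of the difference has no meaning by itself and only its change between arrays does.

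Most smooth muscle markers moved in the same direction as the caveolins. Of 12 tested without flagged spots, 11 were called higher in pBOO than in sham and 0 lower, with a median of 2.29 (12 of 16 and 1.42 with flagged spots kept), where 20.7% of all genes were called higher. Between tolterodine and pBOO 11 were called lower and 0 higher, with a median of -1.79 (13 of 16 and -1.18 with flagged spots kept), where 15.3% of all genes were called lower. Lmod1, an actin nucleator, was at 3.38 and -2.69, Mylk, the kinase of myosin light chain, at 2.77 and -1.86, and Smtn, a cytoskeletal protein of contractile cells, at 2.75 and -2.64. With flagged spots kept another probe stood for Mylk and for Smtn, with 1.63 and -1.30 for Mylk and 1.88 and -1.39 for Smtn, all of which passed too. Acta2, smooth muscle actin, did not pass in either, at 0.30 and -0.16. Of the markers measured only with flagged spots kept, the enteric actin Actg2 was at -0.44 and 0.12 and the filament protein Des at 0.24 and -0.22, none of which passed. The tropomyosin Tpm2 did not pass at 0.32 in the first and fell by 0.57 in the second. The summed level of the 16 markers, on a linear scale relative to the 75th percentile, ran from 438 to 647 on tolterodine arrays, from 736 to 867 on pBOO arrays and from 515 to 597 on sham arrays.

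**Figure D3:**
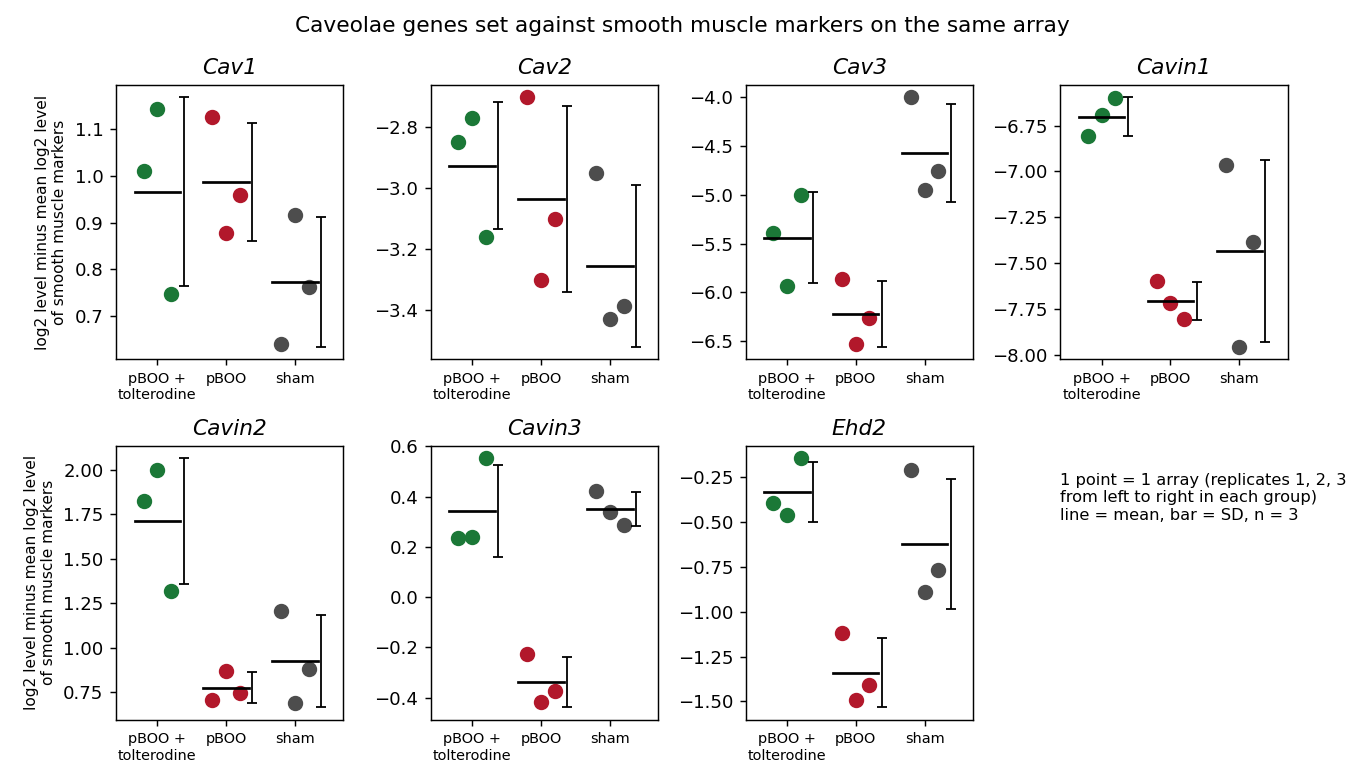
Log2 level of each caveolae gene minus the mean log2 level of 16 smooth muscle markers on the same array (vertical axis), flagged spots kept. Groups are tolterodine-treated pBOO, pBOO and sham from left to right. Points are arrays, lines are means and bars the SD (n = 3). For Cavin1, Cavin2, Cavin3 and Ehd2 all tolterodine points lie above all pBOO points, and for Cav1 and Cav2 these groups overlap. The marker mean itself was lower with tolterodine than in pBOO, so an unchanged gene also lies higher with tolterodine.

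Each member was therefore also set against the mean log2 level of the 16 markers on its own array, as a description with no test. For Cav1 this difference averaged 0.97 ± 0.20 with tolterodine, 0.99 ± 0.13 in pBOO and 0.77 ± 0.14 in sham (SD, n = 3 each), and for Cav2 -2.93 ± 0.21, -3.04 ± 0.31 and -3.26 ± 0.26 in the same groups. Cav1 and Cav2 thus moved by about as much as this marker mean, with 0.21 and 0.22 between pBOO and sham and -0.02 and 0.11 between tolterodine and pBOO. The mean was taken with flagged spots kept. Between pBOO and sham Mylk and Smtn moved less there (1.63 and 1.88) than with flagged spots left out (2.77 and 2.75). No marker mean was formed without flagged spots, so these differences hold for this setting only. The marker mean itself stood at 2.91 with tolterodine, 4.10 in pBOO and 2.73 in sham. An unchanged gene therefore stands lower against the markers in pBOO than in either other group. With flagged spots kept the median change of all genes was -0.05 between pBOO and sham and 0.12 between tolterodine and pBOO. Whether the differences below are particular to the members was not tested. Cavin1 and Cavin2 moved with the markers between pBOO and sham (-0.27 and -0.15), and stood 1.01 and 0.94 higher with tolterodine than in pBOO. Cavin3 and Ehd2 stood lower against the markers in pBOO than in sham, by -0.69 and -0.72, and higher with tolterodine than in pBOO, by 0.68 and 1.01. For Cav3 the difference against the markers was -1.65 between pBOO and sham and 0.78 between tolterodine and pBOO.

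Endothelium and fat also carry caveolae. Of 10 endothelial markers, 5 were called higher in pBOO than in sham and 0 lower (median 0.85), where 20.7% of all genes were called higher. Between tolterodine and pBOO 4 were called lower and 2 higher (median -0.36), where 15.3% of all genes were called lower and 26% higher. Cldn5, a tight junction protein, rose by 2.20 and fell by 0.97, and the adhesion molecule Esam rose by 1.42 and fell by 0.75. Cdh5, which defines endothelial junctions, did not pass in these comparisons, at 0.30 and 0.19. Tek, the angiopoietin receptor, was well above background on the 3 pBOO arrays and on 0 arrays of the other groups. Tek thus passed the filter on dim probes through pBOO alone. The counts and medians of the 10 markers include it, and to that extent the filter favours pBOO in them. The summed endothelial level ran from 5.07 to 5.67 on tolterodine arrays, from 5.11 to 7.72 on pBOO arrays and from 4.09 to 4.49 on sham arrays.

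Of 4 fat cell markers tested without flagged spots, 3 were called lower in pBOO than in sham and 1, the lipase Lpl, higher (0.42), where 21.6% of all genes were called lower and 20.7% higher. The fatty acid carrier Fabp4, measured only with flagged spots kept, fell by 0.76. The summed level of these 5 ran from 16.9 to 17.5 on tolterodine arrays, from 9.97 to 13.6 on pBOO arrays and from 18.7 to 24.0 on sham arrays. Their mean log2 level was split within groups. It was -0.63 on sham 1 beside 1.74 and 1.57 on sham 2 and 3, and -0.61 on tolterodine 3 beside 0.40 and 0.66 on tolterodine 1 and 2. Adipoq, the adipocyte hormone, was well above background on 1 of 3 pBOO arrays and on all arrays of the other groups, and Lep was well above background on 0 arrays. Of skeletal muscle markers, the myosins Myh1, Myh4 and Myh7 were well above background on 0 of 9 arrays, while the 7 others measured gave a summed level of 30.6 to 35.0 on tolterodine arrays, 47.9 to 59.8 on pBOO arrays and 28.3 to 44.8 on sham arrays. Of those 7, 2 were called higher and 1 lower in pBOO against sham, and 5 lower with tolterodine against pBOO, beside the same shares of all genes as above. The part of any of these cell types in the levels of the caveolae genes was not tested.

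The accessory proteins of caveolae were listed as 17 genes, of which 13 were tested without flagged spots and 16 with them. Between pBOO and sham 4 of the 13 were called higher and 1 lower (median 0.40), against 20.7% and 21.6% of all genes. Between tolterodine and pBOO 6 were called lower and 3 higher (median -0.27), against 15.3% and 26% of all genes. Between tolterodine and sham 1 was called higher and 0 lower, against 17.8% and 6.55% of all genes. Cavin4, the cavin of striated muscle, was well above background on 0 arrays.

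**Figure D4:**
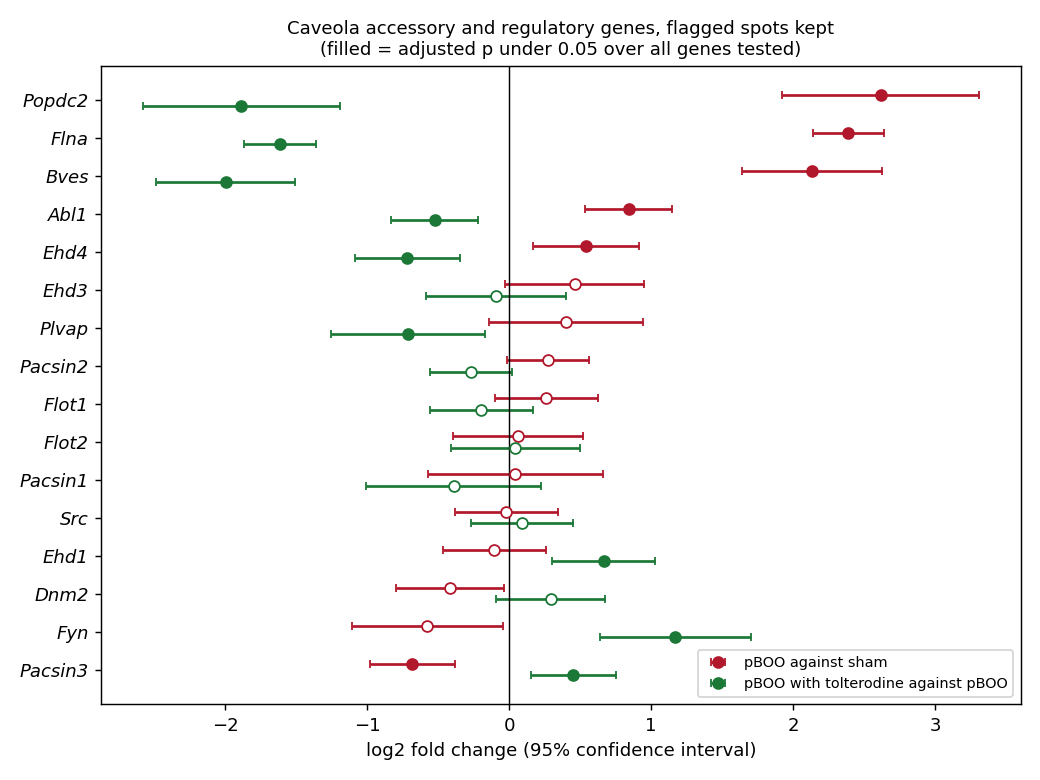
Log2 fold changes (horizontal axis, points) with 95% confidence intervals (bars) of 16 accessory and regulatory genes of caveolae, flagged spots kept, for pBOO against sham in red and tolterodine-treated pBOO against pBOO in green. Filled points passed an adjusted p of 0.05. Popdc2, Flna and Bves have the largest values in both comparisons, positive in the first and negative in the second.

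The Popeye proteins Popdc2 and Bves, membrane proteins of muscle that bind cyclic AMP, were called in both comparisons. Popdc2 stood at -0.66 ± 0.09 with tolterodine, 1.22 ± 0.40 in pBOO and -1.39 ± 0.62 in sham (SD, n = 3 each). It rose by 2.61 in pBOO against sham and fell by 1.88 with tolterodine against pBOO (limma, SE 0.304 each, adjusted p = 0.000293 and 0.00152 with flagged spots kept). Bves stood at -3.80 ± 0.14 with tolterodine, -1.81 ± 0.14 in pBOO and -3.94 ± 0.47 in sham (SD, n = 3 each), and it rose by 2.13 and fell by 2.00. In both genes the pBOO arrays stood above the other groups without overlap.

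Flna, filamin A, which ties caveolin-1 to actin stress fibres, was measured only with flagged spots kept. It stood at 3.04 ± 0.10 with tolterodine, 4.65 ± 0.13 in pBOO and 2.26 ± 0.01 in sham (SD, n = 3 each), and rose by 2.39 in pBOO against sham, fell by 1.61 with tolterodine against pBOO, and stayed higher than in sham by 0.78 (limma adjusted p = 0.00206). Among the kinases that phosphorylate caveolin-1, Abl1 rose by 0.84 and fell by 0.52, Fyn was at -0.58 (not passing) in the first comparison and rose by 1.17 with tolterodine, and Src did not pass at -0.02 and 0.09.

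Of the other EHD ATPases, Ehd4 rose by 0.54 in pBOO against sham and fell by 0.72 with tolterodine against pBOO. Ehd1, an ATPase of recycling endosomes, did not pass at -0.10 in the first and rose by 0.67 in the second, and it was 0.56 higher with tolterodine than in sham. Ehd3 did not pass, at 0.46 and -0.09. Of the pacsins, which bend membranes at the neck, Pacsin3, the form of muscle, fell by 0.68 in pBOO and rose by 0.45 with tolterodine and Pacsin2 did not pass at 0.27 and -0.27. Pacsin1, the form of neurons, fell by 0.75 with tolterodine against pBOO with flagged spots left out (limma adjusted p = 0.00595) and did not pass in pBOO against sham, at 0.40. With flagged spots kept its values were -0.39 and 0.04, and neither passed.

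Plvap, which forms the diaphragm of endothelial caveolae, did not pass in pBOO against sham at 0.40 and fell by 0.71 with tolterodine. The flotillins, which form other membrane domains, did not pass in either, with Flot1 at 0.26 and -0.19 and Flot2 at 0.06 and 0.04. Dnm2, the dynamin that cuts the neck, did not pass at -0.42 and 0.29.

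Receptors, channels and enzymes that have been placed in caveolae of muscle or endothelium were listed as 23 genes, and 22 were tested. In pBOO against sham 18 were called higher and 1 lower, with a median of 1.23, against 20.7% and 21.6% of all genes. With tolterodine against pBOO 12 were called lower and 2 higher, with a median of -0.55, against 15.3% and 26% of all genes. With tolterodine against sham 11 were called higher and 0 lower, with a median of 0.51, against 17.8% and 6.55% of all genes. Bdkrb2, the bradykinin receptor, was well above background on 2 tolterodine arrays, 3 pBOO arrays and 0 sham arrays.

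Atp2b4, a calcium pump of the plasma membrane, stood at -3.29 ± 0.04 with tolterodine, -0.79 ± 0.12 in pBOO and -4.73 ± 0.35 in sham (SD, n = 3 each). It rose by 3.94 in pBOO and fell by 2.50 with tolterodine, and remained 1.44 above sham (limma adjusted p = 0.000946). Cacna1c, the pore of the L-type calcium channel, rose by 2.98 in pBOO and fell by 2.14 with tolterodine. Adrb3, the β-adrenoceptor that relaxes the detrusor, fell by 3.97 with tolterodine against pBOO (limma adjusted p = 0.00192). Kcnma1, the pore of the large-conductance potassium channel, was 4.28 higher with tolterodine than in sham (limma adjusted p = 0.00648), but its sham arrays ran from -4.50 to -0.95, so the size depends on which of them is used.

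Genes whose pattern over the arrays was most like that of a member were found by the root mean square difference between log2 levels, each centred on its own mean, among 10145 genes with a value on all arrays. Cav2 was nearest to Slc4a3, at 0.077 over 8 arrays where the median gene stood at 0.806, followed by Kiaa0232 and Pitpnm2. Cavin1 was nearest to Clock at 0.122, followed by B4galt2 and Heca, and Cavin2 to Tmem170b at 0.111, followed by Clasp2 and Rhob. Cavin3 was nearest to Exoc6b at 0.072 (then Amz2 and Mtrfr), Ehd2 to Enah at 0.080 (then Scarb1 and Kctd10) and Cav3 to Ifi27l2b at 0.123 (then Slc35f2 and Tnnc1). The members themselves were left out of the search. Slc4a3, an anion exchanger, changed by 1.58 in pBOO against sham and by -1.08 with tolterodine against pBOO, close to Cav2 by choice. Clock stood at 1.00 in the first and 0.01 in the second.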

How the data were processed

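The members and all gene lists were chosen with earlier results of these data known. The deposited files hold Agilent intensity values of one-colour arrays as the scanner software gave them (Feature Extraction 11.0.1.1 per the file headers, 9.1 per the submitters' processing notes), already background-subtracted and not yet scaled between arrays. The processed signal of each array was divided by its 75th percentile over non-control spots and put on the log2 scale, a step computed here and not by the authors. Spots flagged as non-uniform or population outliers, on the spot or its local background, were set to missing. Probes had to be well above background on at least 3 of 9 arrays with at least 2 unflagged arrays per group, and the probe with the highest mean stood for its gene. Gene names came from RefSeq through the accession in the files, which gave 1 symbol to 18005 probes and none to 12362. Levels were compared with limma 3.58.1 in R 4.3.3 (lmFit and eBayes over all 9 arrays, two-sided, Benjamini-Hochberg over 11092 genes, 6 residual and 2.78 prior degrees of freedom). SEs of the changes had a median of 0.17 (log2), and the number of arrays limits the precision. Cav1 lost all pBOO spots to flags and was tested with flagged spots kept.

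In data simulated for pBOO against sham on 10149 genes, with 200 genes changed by 1 on the log2 scale, the fit recovered 124 of them (62%) and called 9 others. The simulated noise was independent between arrays and had no scan effect, and far fewer genes changed than were called in the data. These figures check the fit and do not measure recovery or false calls in the data. All accessory genes are named. Of the other lists up to 4 called genes with the largest change in a comparison could be named, with markers not above background. Acta2, Cdh5, Rgs5, Notch3, Col1a1, Dcn and Pi16 were added after their values were seen. For each tested member, the 3 genes outside the members with the most similar pattern are named. Alternatives were other scalings and a normexp background (offset 50), flags kept, no filter on dim probes, the mean over probes, the scan set and the replicate number as blocks, each array left out, and the names of pBOO and sham exchanged. The slide cell of the headers is blank, so the scan set stood for the slide. Replicate numbers did not pair the arrays: over 9 same-numbered pairs the correlation of deviations ran from -0.08 to 0.18, and 1 was over 0.1.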

Additional observations from a re-analysis of the deposited data

How the results depend on the processing

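Genes called between pBOO and sham numbered 4691, against 2894 within the second scan set, which has 1 sham array, and 3366 to 5051 with each array left out. Between tolterodine and pBOO they numbered 4579 (3383 to 5228 with each array left out), and between tolterodine and sham 2695, against 4490 with the scan set as a fixed block, 4278 as a random block, 5729 within the first scan set and 1380 to 3743 with each array left out. With the replicate block the counts were 4347, 4237 and 2334, and the members called stayed at 4, 2 and 2. Members called higher in pBOO than in sham numbered 3 to 5 with each array left out. Members called lower with tolterodine than in pBOO numbered 2, against 1 without the filter on dim probes, 1 with the scan set as a fixed block and 0 to 2 with each array left out. Cav2 was not tested without tolterodine 1 or 2, as its flagged spot on tolterodine 3 left too few arrays, and it drops out of those counts. In the 7 settings that tested it, Cav2 passed both between pBOO and sham and between tolterodine and pBOO. Members called higher with tolterodine than in sham numbered 2, against 4 within the first scan set, where 1 was lower, and 2 to 3 with each array left out.

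With the names of pBOO and sham exchanged, as the letters of the protocol would have it, 4 members were lower and 0 higher in pBOO against sham, 2 higher and 0 lower with tolterodine against pBOO (2695 genes called), and 2 lower and 0 higher with tolterodine against sham (4579 genes called). The values of Cav1, Cav2, Cavin1, Cavin2 and Cavin3 were then -1.58, -1.59, -1.10, -1.22 and -0.68 in the first comparison, 0.38, 0.55, 0.92, 0.97 and 0.18 in the second, and -1.21, -1.04, -0.18, -0.24 and -0.50 in the third. With the scan set as a fixed block, Cavin1, Cavin2 and Ehd2 between tolterodine and pBOO were at 0.14, 0.04 and 0.12. These values rest on sham 1 as the only sham array scanned with pBOO.

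Of the calls between tolterodine and pBOO 63% were higher, against 52.7% with quantile scaling and 52.3% with normexp. Between tolterodine and sham 73.1% were higher, against 58.1% with quantile scaling, 50.1% with median scaling, 57.3% with normexp and 61.4% with the scan set as a fixed block. The cause of these changes was not tested. Dim probes limit Cavin1 most, and 3 arrays a group limit every value.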

Other observations

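Other cell type markers gave these values with flagged spots left out. Of all genes 20.7% were called higher and 21.6% lower in pBOO against sham, 26% higher and 15.3% lower with tolterodine against pBOO, and 17.8% higher and 6.55% lower with tolterodine against sham. Of 6 mural cell markers, 4 were called higher in pBOO than in sham (median 1.22) and 4 lower with tolterodine than in pBOO (median -0.91). Abcc9, a subunit of potassium channels in pericytes, was at 2.15 and -2.16 in these comparisons, and Mcam, an adhesion molecule, at 2.10 and -2.07. Rgs5 (-0.06 and -0.07) and Notch3 (0.33 and 0.49) passed in neither, and Notch3 was 0.82 higher with tolterodine than in sham, which passed. Of 6 fibroblast markers, 3 were called higher in pBOO than in sham (median 0.64) and 4 higher with tolterodine than in sham (median 0.74), with the surface protein Cd34 at 2.11 and 1.78. Col1a1 did not pass at 0.11 in the first of these and passed at 0.67 in the second. Dcn (0.35 and 0.38) and Pi16 (0.73 and 0.60) passed in neither.

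Of 10 macrophage markers, 6 were called lower in pBOO than in sham and 0 higher (median -0.75), and 9 higher with tolterodine than in pBOO (median 1.76) and than in sham (median 0.84). The scavenger receptor Cd163 was 2.45 higher with tolterodine than in pBOO, and the complement gene C1qb 2.43. Their summed linear level ran from 62.3 to 72.6 on tolterodine arrays, from 14.1 to 15.7 on pBOO arrays and from 27.9 to 35.6 on sham arrays. Of 7 urothelial markers, 4 were called lower in pBOO than in sham and 0 higher (median -0.96), with the basal keratins Krt5 at -1.98 and Krt14 at -1.86. With tolterodine against pBOO 3 of the 7 were called higher, Krt14 (2.60), Krt5 (0.98) and the cadherin Cdh1 (0.49), and 1 lower, Krt20, the keratin of umbrella cells (-4.98), with a median of -0.26. The part of these cell types in the levels of the caveolae genes was not tested.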
